A study of Mus musculus with 14 samples.

Results

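The cells described here are 73 intra-aortic haematopoietic cluster (IAHC) cells from mouse embryos at embryonic day (E) 10. They are every column that carries the IAHC label in the deposited E10 single-cell table, 73 of 546 cells. The study profiled single cells of the aorta-gonad-mesonephros (AGM) region by CEL-Seq, which counts molecules at transcript 3′ ends with unique molecular identifiers, to follow blood stem cell formation in the aorta. The E10 table holds 5 populations at 3000 transcripts per cell, and each population is 1 sample of the series. An E11 single-cell table and a table of whole clusters come from the same study.

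The IAHC cells were C57BL/6 WT, from embryos of 28 to 32 somite pairs, sorted as c-kit+ CD31+ after antibodies had been injected into the aorta, from pooled AGMs. The yolk sac (YS) cells, sorted as c-kit+, were also C57BL/6 WT at that stage. The non-haemogenic endothelium (non-HE), haemogenic endothelium (HE) and endothelial-to-haematopoietic transition (EHT) cells were ICR mice with the reporter genotype given in the labels as Gfi+/tomato/ Gfi1b+/GFP. They were sorted as Cdh5+ and Gfi1b-. Non-HE cells were Gfi1- c-kit-, HE cells Gfi1+ c-kit- and EHT cells Gfi1+ c-kit+. Column names put the non-HE cells at early E11 and the HE and EHT sets late in E10 or midway to E11, and the labels, which say E10, were followed. The table holds 191 EHT cells in sorted sets of 64, 40 and 87, 141 YS cells in sets of 65 and 76, 98 HE cells, 43 non-HE cells, and 1 set of IAHC cells. The 191 EHT columns are more than the study plotted. The E11 IAHC cells used for comparison, 201 in sets of 50, 59, 49 and 43, were C57BL/6 WT, c-kit+ CD31+ and from embryos of more than 40 somite pairs. E11 EHT and YS cells of that stage were of the strain, genotype and sort of their E10 counterparts, and the E10 whole clusters were c-kit+, C57BL/6 WT and of 28 to 32 somite pairs.

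Strain, reporter, collecting site, sort and, by column names, age differed together between IAHC and EHT cells, so none of these can be told apart from the population. YS cells share strain and genotype with IAHC cells and differ in tissue and sort. With 1 sample per population no test was run, and intervals below cover counting error only, as exact Poisson 95% limits for sums and exact Clopper-Pearson 95% limits for shares. The study kept IAHC cells partly by their *Gpr56* transcripts and sorted them on c-kit and CD31, so *Gpr56*, *Kit* and *Pecam1* values describe the selection.

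Definitive blood stem cells arise in the mid-gestation embryo from haemogenic endothelium, a specialised part of the vessel wall that switches on the transcription factor gene *Runx1*. Its cells round up, leave the endothelial layer and gather as clusters attached to the wall of the dorsal aorta, while endothelial genes are shut down and blood genes are switched on. Clusters hold progenitors and precursors of stem cells, whereas the yolk sac makes an earlier wave of erythroid and myeloid progenitors.

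Levels of 5 marker genes of cluster cells come first. *Gpr56*, an adhesion receptor, had 305 transcripts in the IAHC cells (95% limits 3.72 to 4.67 per cell), against 3.04 per EHT cell and 2.42 per YS cell. It was seen in 73 of 73 IAHC cells, with 1 to 10 transcripts and a median of 4, and 6 cells had a single transcript. *Cd34*, a sialomucin of endothelium and progenitors, had 3.89 (3.45 to 4.37), against 2.32 in EHT and 1.18 in YS cells. *Cd34* was thus highest in IAHC cells among these 3 populations, and 68 of the 73 cells had a transcript. *Kit*, the stem cell factor receptor, had 0.945 (0.735 to 1.2) in IAHC, 1.29 in EHT and 0.362 in YS cells, although all 3 were sorted on the protein. *Sfpi1*, which encodes the myeloid and lymphoid factor PU.1, had 0.836 (0.639 to 1.07), 0.691 and 0.39. *Runx1* had 0.616 (0.45 to 0.825), 0.733 and 0.468, a difference within the counting limits between IAHC cells and either comparator.

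At least 3 of the 5 markers were seen in 58 of 73 IAHC cells (79.5%), 158 of 191 EHT cells (82.7%), 56 of 141 YS cells (39.7%), 24 of 98 HE cells and 0 of 43 non-HE cells. All 5 were seen in 12 IAHC cells, and no IAHC cell had fewer than 2. Since *Gpr56* and c-kit took part in the selection, these counts describe it, and they were alike in IAHC and EHT cells. *Kit* and *Runx1* were seen together in 19 IAHC cells (26%, limits 16.5 to 37.6). The 11 genes that the study used to mark non-IAHC cells summed to 1.74 transcripts per IAHC cell, 2.14 per EHT cell and 0.369 per YS cell. Of these, *Cdkn1c* passed 2 transcripts in 14 IAHC cells, and the other 10 genes in 0. The study describes leaving out cells above that number, so the count of 0 describes the selection.

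**Figure D1:**
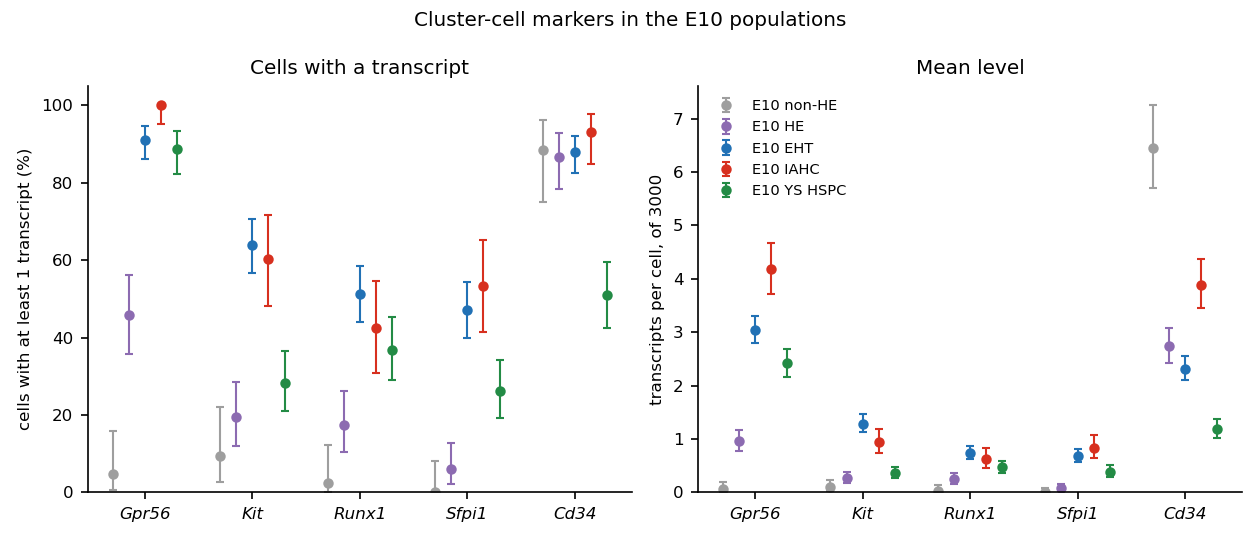
Share of cells with a transcript (95% Clopper-Pearson limits) and mean transcripts per cell at 3000 transcripts (95% Poisson limits) of 5 cluster markers in the 5 E10 populations. *Gpr56* was seen in every IAHC cell and *Cd34* was higher in IAHC than in EHT and YS cells.

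Each IAHC cell had 3000 transcripts spread over 1626 to 1956 genes, with a median of 1812, against 1837 in EHT and 1752 in YS cells. Over the 73 cells 10609 of the 19322 genes had a transcript. The most abundant were *Ptma*, an acidic chromatin protein gene, at 36.5 transcripts per cell, and the translation factor *Eef1a1* at 33.9. Counting 3′ ends gives 1 molecule per transcript whatever its length. Actin (*Actb*, 16.4), chaperones (*Hsp90ab1*, 16.2, and *Hspa8*, 16.1) and the actin-binding *Tmsb4x* (15.4) followed. The imprinted growth genes *H19* (15.2) and *Igf2* (11.6) ranked 9 and 14, and *H19* was seen in 71 and *Igf2* in 72 cells. Both were also abundant in EHT cells, at 15.5 and 19.2, while YS cells had 1.33 and 1.08. The 2 imprinted genes were thus among the main transcripts of the aortic cells.

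IAHC cells were then compared across genes with EHT cells, the population that the study places before them. A gene was called when its mean changed at least 2-fold with 0.1 transcripts per cell added to each mean, and when the average of the 2 means was at least 0.2 transcripts per cell. Of 3471 genes that met this minimum, 78 were higher in IAHC cells (2.25%) and 159 lower (4.58%), with a median log2 ratio of 0.05. Against every EHT set taken alone, 27 stayed higher and 79 lower. Differences between EHT sets give a scale for these shares, since set against set between 1.08% and 3.23% of genes were called in either direction. IAHC cells against single EHT sets gave 7.99% to 10.53%. Most calls in IAHC cells were thus losses relative to EHT cells, and they outnumbered the differences among EHT sets.

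**Figure D2:**
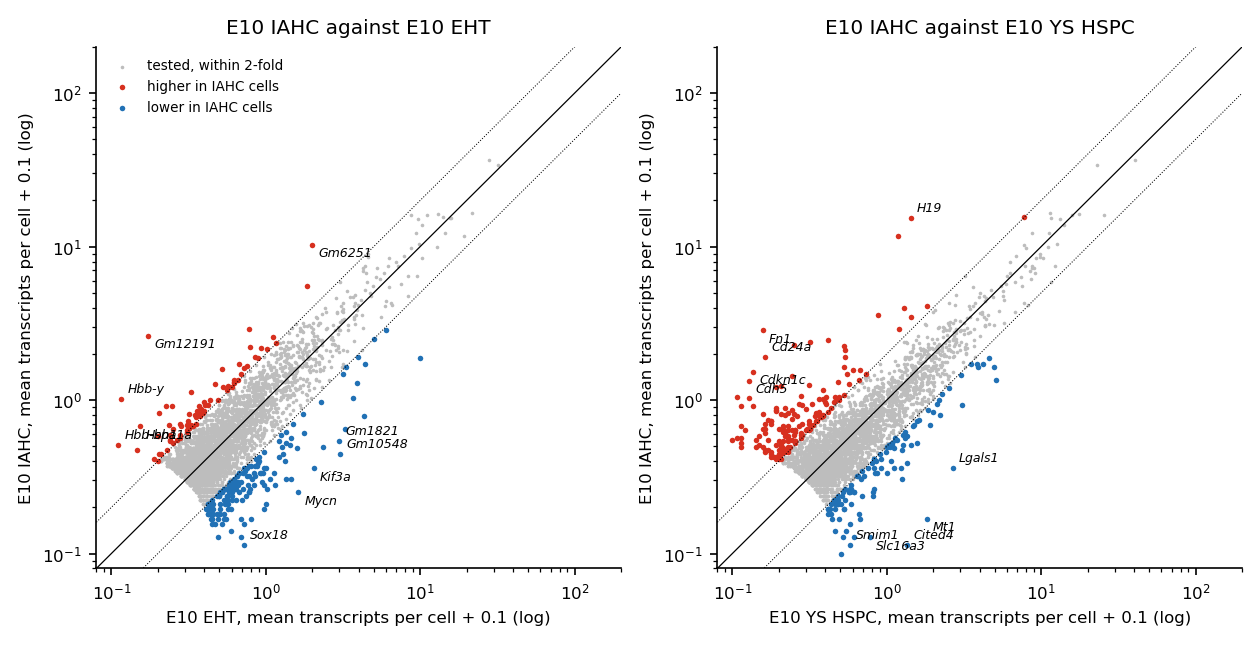
Mean transcripts per cell of each gene, plus 0.1, on log axes, in IAHC cells against EHT cells and against YS cells. Points past the dotted 2-fold lines and the minimum are coloured, 78 and 159 genes for EHT and 159 and 112 for YS, and the 5 named genes with the largest ratios each way are labelled.

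Endothelial genes were among those lower in IAHC than in EHT cells. A list of 50 endothelial and arterial genes summed to a mean of 26 transcripts per EHT cell, 15.5 per IAHC cell (14.6 to 16.5) and 2.43 per YS cell. HE cells had 87.3 and non-HE cells 122. Medians lay closer, at 18 in EHT cells (0 to 125 over cells) and 14 in IAHC cells (1 to 50), so EHT cells with high sums raised their mean. Of 29 list genes that met the minimum, 8 were called lower (4.58% over all genes) and 0 higher (2.25% over all genes), with a median log2 ratio of -0.74 beside 0.05 over all genes. Each of the 8 had a mean under the minimum in IAHC cells and met it only through EHT cells, so nothing is drawn from this count. The sums of 26 and 15.5 over the 50 genes have no minimum. The EHT sets lay between 23.7 and 27.3, all above the IAHC value. In *Sox18*, a SoxF factor of vessel development, IAHC cells had 1 transcript in all, 0.0137 per cell, and EHT sets had 0.552 to 0.703. The ratio was 45.5 in favour of EHT cells, with counting limits of 8.01 to 1811. *Sox7*, another SoxF gene, had 8 transcripts in IAHC cells and 66 in EHT cells, 0.11 against 0.346 per cell.

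Others of the 8 have roles in arteries and vessel growth. *Efnb2*, the ephrin ligand that marks arteries, had 2 transcripts in IAHC cells and 0.393 per EHT cell, a ratio of 14.3 (3.83 to 121). *Nrp1*, a co-receptor for vascular endothelial growth factor, had 0.164 per IAHC cell against 0.6 to 1.21 in EHT sets. The arterial gap junction genes *Gja4* and *Gja5* had 0.164 and 0.123 per IAHC cell and 0.686 and 0.539 per EHT cell, 4.17-fold (2.31 to 8.28) and 4.37-fold (2.22 to 9.84) lower. All EHT sets were above the IAHC value for both. The hypoxia factor *Epas1* had 0.0822 against 0.44, and the lymphangiogenic factor *Vegfc* had 0.178 against 0.534, although 1 EHT set of 40 cells had 0.175. Not every vessel gene fell. The endothelial secreted factor *Egfl7*, at 1.32 the most abundant list gene in IAHC cells, had 0.764 in EHT cells, and the TGF-beta co-receptor *Eng* had 0.753 against 0.55, both under 2-fold. Of the 50 genes, 7 were not seen in IAHC cells, *Cav1*, *Ctgf*, *Fbln5*, *Hey2*, *Lyve1*, *Nrp2* and *Prom1*.

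Among 34 genes of stem and progenitor cells in the table, 30 met the minimum, of which 1 was called higher (2.25% over all genes) and 5 lower (4.58% over all genes), with a median log2 ratio of -0.23. *Mycn*, a Myc-family factor, had 11 transcripts in 11 IAHC cells, 0.151 per cell (0.0752 to 0.27). Its level in EHT sets was 1.47, 1.48 and 1.57, with no overlap, and it was 10.1-fold lower in IAHC cells (5.55 to 20.4). *Procr*, the protein C receptor of early stem cells, had 0.466 per IAHC cell and 1.37 per EHT cell. *Mecom*, a stem cell transcription factor, had 0.233 and 0.576, the Ikaros-family *Ikzf2* had 0.219 and 0.681, and *Cbfb*, the partner of Runx1, had 0.274 and 0.775. These 4 were 2.47-fold to 3.11-fold lower in IAHC cells. The integrin gene *Itga2b*, which encodes CD41 of early blood and platelets, was the gene called higher, with 0.315 per IAHC cell and 0.089 per EHT cell. *Cd48* and *Erg* of this list were not seen in IAHC cells, and 3 counts over the 73 cells, taken as the limit of a count of 0, allow 4.11% of cells with a transcript.

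Myeloid genes lay the other way. A list of 32 summed to 13.7 transcripts per IAHC cell (12.9 to 14.6), against 7.67 per EHT cell, with EHT sets at 8.41, 7.03 and 7.43. Of 14 that met the minimum, 5 were called higher (2.25% over all genes) and 0 lower (4.58% over all genes), with a median log2 ratio of 0.77. *Coro1a*, an actin regulator of leukocytes, was the most abundant, with 2.48 per IAHC cell (2.13 to 2.87) and EHT sets between 0.908 and 1.14. *Arhgdib*, a signalling regulator of blood cells, had 1.77 and 0.785. Granule protein genes were present at lower levels, *Mpo* at 0.589 and 0.23 and *Prtn3* at 0.671 and 0.251, while *Elane*, *Ctsg* and the myeloid factor *Cebpa* had 0 transcripts in IAHC cells. *Tyrobp*, an adaptor of myeloid receptors, had 0.479 per IAHC cell (0.334 to 0.667), and EHT sets had 0.0938, 0.1 and 0.103, a 4.82-fold difference (2.68 to 8.92). The myeloid sum of IAHC cells was thus above that of each EHT set.

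Other named genes that were higher in IAHC than in EHT cells had roles outside these lists. The phosphatase *Ptpn18* had 1.49 per IAHC cell and 0.368 to 0.525 in EHT sets. *Pstpip1*, a leukocyte actin adaptor, had 0.37 and 0.0471, and it missed the minimum when the EHT set of 64 cells was left out, with a log2 ratio of 1.93. The mitotic kinesin *Kif11* had 1.03 per IAHC cell, in 33 cells, and EHT sets between 0.126 and 0.344. *Scand1*, which encodes a nuclear SCAN domain protein, had 0.726 and 0.105. Among lower genes, the tumour suppressor *Trp53* had 0.205 per IAHC cell and 1.19 to 1.52 in EHT sets. The ribosome assembly gene *Nip7* had 0.685 and 3.55 to 5.55, the citric acid cycle gene *Ogdh* 0.548 and 2.4 to 4.65, and the kinesin *Kif3a* 0.26 and 1.15 to 2.77. *Atxn2l* (2 transcripts in IAHC cells and 0.586 per EHT cell), *Ost4* (0.0959 and 0.869) and the non-coding *A630089N07Rik* (0.11 and 0.911) were lower too.

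Part of the contrast with EHT cells lay in genes known by Gm numbers, several of them annotated as pseudogenes. *Gm12191* had the largest log2 ratio with 0.1 added to both means, 3.92, with 2.52 per IAHC cell, in 65 cells, against 0.0115 to 0.156 in EHT sets, 34.4-fold (20 to 64.1). YS cells had 1.5 of it and HE cells 0.0204, so it was high in both C57BL/6 populations and low in the ICR ones. *Gm6251* had the same order, at 10.2 in IAHC, 7.69 in YS and 1.88 in EHT cells, as had the pseudogene *Gm6548*, at 0.808, 0.404 and 0.126. The pseudogenes *Gm10548* and *Gm1821* lay the other way, at 0.342 and 0.438 per IAHC cell, 0.191 each per YS cell, and 2.93 and 2.88 per EHT cell. The actin-binding *Pfn1* had 1.77 in IAHC, 1.21 in YS and 9.81 in EHT cells. Of 24 genes named Gm with a number that met the minimum, 4 were called higher and 6 lower, beside 2.25% and 4.58% over all genes. For these genes the population cannot be told apart from the strain, and the sharing of reads between near-identical copies was not tested.

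The sexes of the embryos are a second such feature. *Xist*, the RNA of the inactive X chromosome, had 5 transcripts in 4 IAHC cells, 87 in 47 EHT cells and 9 in 7 YS cells. Transcripts of Y-linked genes were seen in 18 IAHC cells, 38 EHT cells and 16 YS cells, and 0 IAHC cells had both. Any part of sex in the comparisons was not tested.

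The E11 table holds the same contrast in other cells, with 201 IAHC cells and 46 EHT cells. Of the 12 named genes that were higher in IAHC than in EHT cells at E10, 9 met the minimum at E11 and 6 were called the same way, with *Kif11* and *Tyrobp* among those that were not. Of the 12 lower genes, 12 met it and 10 were called the same way, all but *A630089N07Rik* and *Trp53*, and 0 of the 24 were called the opposite way. The ICR strain of the EHT cells is common to both stages.

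Yolk sac cells share the strain and the labelled stage of the IAHC cells. Of 3249 genes that met the minimum, 159 were higher in IAHC cells (4.89%) and 112 lower (3.45%), with a median log2 ratio of -0.05. Against each YS set alone, 119 and 75 held. The 2 YS sets differed from each other in 12 of 3150 genes (0.381%), and IAHC cells differed from a single YS set in 8.71% and 8.97%. The same IAHC cells enter this comparison and the one with EHT cells, so values of a gene in the 3 populations are given side by side.

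Endothelial transcripts, lower than in EHT cells, were well above those of YS cells. Of 18 endothelial list genes that met the minimum, 16 were called higher than in YS cells (4.89% over all genes) and 0 lower, with a median log2 ratio of 2.14. A gene near 0 in YS cells meets the minimum only where it is high in IAHC cells, and is then past 2-fold. For such genes this count and median were set by the minimum, so nothing is drawn from them. The sums of 15.5 and 2.43 over the 50 genes have no minimum. *Cdh5*, the endothelial cadherin on which EHT cells were sorted, had 1.23 per IAHC cell (0.991 to 1.52), in 45 cells, and 2.1 per EHT cell. The YS sets had 0 and 0.0526, and the IAHC level was 43.5-fold that of YS cells (16.4 to 163). *Vwf*, the clotting protein of endothelium and platelets, had 0.945, in 41 cells, and 1 transcript in 141 YS cells, a ratio of 133 (23.1 to 5339). *Cldn5*, a tight junction gene, had 33 transcripts in 17 IAHC cells and 0 in YS cells, at least 21.2-fold from a floor of 3 counts over the YS cells. The chemotaxis regulator *Ecscr* (0.808 against 0.0355) and the adrenomedullin co-receptor *Ramp2* (0.932 against 0.0284) were also among the largest ratios. The other 11 list genes, *Col4a1*, *Col4a2*, *Eng*, *Esam*, *Id1*, *Id3*, *Mmrn2*, *Pecam1*, *Plvap*, *Sparc* and *Tie1*, had 0.425 to 0.836 per IAHC cell and 0.00709 to 0.234 per YS cell.

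Other named genes higher than in YS cells have roles in matrix and growth, and the matrix gene *Emilin2*, given below, was lower. *Fn1*, which encodes fibronectin of the matrix, had 201 transcripts in 57 IAHC cells, 2.75 per cell (2.39 to 3.16), and YS sets had 0.0923 and 0.0263. The difference was 48.5-fold (24.2 to 114), and EHT cells had 5.9. *Col18a1*, a basement membrane collagen, had 2.29 per IAHC cell and 0.2 and 0.237 in YS sets. *H19* had 15.2 and *Igf2* 11.6 per IAHC cell, with YS sets at 1.54 and 1.14 for *H19* and 0.938 and 1.2 for *Igf2*, 11.4-fold (9.78 to 13.4) and 10.8-fold (9.06 to 12.9). *Cdkn1c*, an imprinted cell cycle inhibitor gene, had 1.42 (1.16 to 1.73) and 0.0355. The 3 imprinted genes lie on chromosome 7, at chr7:142575530-142578146 for *H19*, chr7:142650768-142666816 for *Igf2* and chr7:143458339-143461059 for *Cdkn1c*. *Cd24a*, a sialoglycoprotein of the surface, had 1.79 and 0.0638. All of these had higher levels in IAHC cells than in both YS sets.

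Stem and progenitor genes summed to 23.2 transcripts per IAHC cell and 15.5 per YS cell, with *Gpr56* and *Kit* of the selection included. Of 26 that met the minimum, 7 were called higher and 2 lower, beside 4.89% and 3.45% over all genes, with a median log2 ratio of 0.28. Of the 7, *Cd93*, *Gfi1*, *Hlf*, *Neurl3* and *Procr* were under 0.2 per YS cell and met the minimum only through IAHC cells. *Kit* took part in the sort, so nothing is drawn from this count. *Kit* had a log2 ratio of 1.18 and *Cd34* of 1.64. The reporter gene of the EHT sort, *Gfi1*, a repressor of endothelial genes, had 0.534 per IAHC cell, 0.874 per EHT cell and 3 transcripts in YS cells, 25.1-fold over YS (7.98 to 127). *Procr* had 34 transcripts in IAHC and 2 in YS cells. The surface receptor *Cd93* (0.959 and 0.177), the stem cell factor *Hlf* (0.397 and 0.0426) and the ubiquitin ligase *Neurl3* (0.603 and 0.078) were the others. The GATA cofactor *Zfpm1* had 0.288 per IAHC cell and 1.26 per YS cell, and *Itga2b* 0.315 and 0.73, so *Itga2b* lay between EHT and YS cells.

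Genes lower than in YS cells included erythroid genes and a few myeloid ones. *Cited4*, a transcription cofactor, had 1 transcript in the IAHC cells and 1.09 and 1.41 per cell in YS sets, a ratio of 92.2 (16.3 to 3660). *Gata1*, the erythroid and megakaryocyte factor, had 2 transcripts in 2 IAHC cells and 0.415 and 0.605 in YS sets, a ratio of 18.9 (5.05 to 159). *Smim1*, which carries the Vel antigen of red cells, had 1 transcript and 0.475 per YS cell. *Lgals1*, which encodes galectin 1, had 0.26 per IAHC cell, in 17 cells, and 2.78 and 2.38 in YS sets, 9.86-fold lower (6.23 to 16.6), with 0.628 in EHT cells. The lactate exporter *Slc16a3* (2 transcripts against 0.674 per YS cell), the matrix gene *Emilin2* (0 transcripts against 0.404, at least 9.84-fold) and the phosphatase *Ptpn7* of blood cells (0.205 against 1.16) were in the same direction. *Emilin2* missed the minimum without the YS set of 65 cells, with a log2 ratio of -2.27, and with median-of-ratios scaling, with -2.29. With a pseudocount of 0.5 *Emilin2*, *Gata1*, *Smim1* and *Mt2* were among genes under 2-fold. *Ydjc*, the tubulin *Tuba8* and the kinase *Taok3* had 0.0685, 0.0411 and 0.0548 per IAHC cell and 0.447 to 0.567 per YS cell. Of myeloid genes, *Mpo* (0.589 and 1.82), *Rac2*, a GTPase of blood cells (0.699 and 2.11), and *Plac8* (0.0959 and 0.319) were lower, and *Alox5ap*, of leukotriene synthesis, was higher (0.63 and 0.213), so that 3 of 16 that met the minimum were lower (3.45% over all genes) and 1 higher (4.89% over all genes). The myeloid sum of IAHC cells, 13.7, was under the 15.8 of YS cells, with limits of 12.9 to 14.6 and 15.1 to 16.5, while the median log2 ratio was -0.04 beside -0.05 over all genes.

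Metallothionein genes, whose products bind zinc and copper, fell together. *Mt1* had 5 transcripts in 4 IAHC cells, 0.0685 per cell, and 1.72 and 1.7 in YS sets, a 25-fold difference (10.55 to 77.6). *Mt2* had 2 transcripts in IAHC cells, and 0.462 and 0.382 in YS sets. EHT cells had 6 and 0 transcripts of them, so both aortic populations were low.

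Promoters of genes that moved together are shown for 2 neighbouring pairs and 1 receptor gene, from 250 bases before to 50 bases after a transcript start, read from RefSeq on build GRCm38.p6. For *Mt1* and *Col4a1* that start lies inside the RefSeq bounds of the gene, so another transcript of the gene begins further out, and the distances below are between the starts used. *Mt1* (chr8:94178839-94179138, + strand) and *Mt2* (chr8:94172368-94172667, + strand) have starts 6471 bases apart. Capitals in both mark the core of the metal response element, bound by the zinc sensor MTF1, searched on both strands as TGCGCNC and separately as TGCACNC. *Col4a1* (chr8:11312777-11313076, - strand) and *Col4a2* (chr8:11312555-11312854, + strand), for the chains of type IV collagen of basement membranes, have starts 21 bases apart on opposite strands, and the windows share 78 bases. Capitals there mark GC boxes, bound by SP1, searched as GGGCGG on both strands. *Tie1* (chr4:118489800-118490099, - strand), an endothelial receptor, has in capitals the ETS motif, searched as GGAAGT on both strands.
Mt1: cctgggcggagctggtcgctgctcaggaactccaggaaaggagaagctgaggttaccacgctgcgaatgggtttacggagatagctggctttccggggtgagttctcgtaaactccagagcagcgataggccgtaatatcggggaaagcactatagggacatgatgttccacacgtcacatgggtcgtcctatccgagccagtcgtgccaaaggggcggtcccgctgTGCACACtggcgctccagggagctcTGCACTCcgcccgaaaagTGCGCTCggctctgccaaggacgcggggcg
Mt2: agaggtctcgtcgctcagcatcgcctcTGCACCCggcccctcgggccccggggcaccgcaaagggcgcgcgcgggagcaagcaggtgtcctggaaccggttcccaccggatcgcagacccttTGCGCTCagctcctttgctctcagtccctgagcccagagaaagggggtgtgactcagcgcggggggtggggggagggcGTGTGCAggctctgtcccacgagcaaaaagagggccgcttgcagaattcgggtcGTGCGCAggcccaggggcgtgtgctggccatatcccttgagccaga
Col4a1: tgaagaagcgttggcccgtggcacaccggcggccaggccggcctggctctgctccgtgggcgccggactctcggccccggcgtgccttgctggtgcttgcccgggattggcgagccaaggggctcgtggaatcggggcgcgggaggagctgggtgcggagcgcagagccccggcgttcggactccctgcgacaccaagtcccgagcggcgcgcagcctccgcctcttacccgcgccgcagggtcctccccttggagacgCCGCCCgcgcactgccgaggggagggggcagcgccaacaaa
Col4a2: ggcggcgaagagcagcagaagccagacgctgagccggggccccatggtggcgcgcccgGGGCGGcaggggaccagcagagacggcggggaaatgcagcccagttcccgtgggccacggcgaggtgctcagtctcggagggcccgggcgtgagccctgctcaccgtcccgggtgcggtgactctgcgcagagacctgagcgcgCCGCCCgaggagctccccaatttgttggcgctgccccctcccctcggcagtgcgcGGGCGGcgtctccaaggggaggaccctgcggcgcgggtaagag
Tie1: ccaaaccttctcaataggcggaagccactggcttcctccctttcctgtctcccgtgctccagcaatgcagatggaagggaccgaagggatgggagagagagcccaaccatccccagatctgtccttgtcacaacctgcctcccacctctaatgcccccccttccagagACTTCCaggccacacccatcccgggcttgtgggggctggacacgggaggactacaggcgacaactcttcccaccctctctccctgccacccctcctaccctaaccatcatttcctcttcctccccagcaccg
The *Mt1* window held 1 match of the G form and 2 of the A form of the metal response element, and *Mt2* held 2 of each. Over 27026 promoters of this length the G form was in 15.5%, the A form in 12.4% and either in 25.6%. Among 10 promoters at hand of genes named as lower than in YS cells, these 2 included, 2 held the G form and 4 the A form. Among 7 promoters at hand of endothelial genes higher than in YS cells, 3 held the G form, with 2 matches in *Col4a1*, and 1 the A form. Whether either form differs between lower and higher genes was not tested. *Col4a1* held 1 GC box and *Col4a2* 3, and 35.9% of promoters hold it. The box was in 4 of the 7 endothelial promoters and in 7 of the 10 of lower genes, with 3 matches in *Mt1*. The box of *Col4a1* lies in the shared stretch and is also 1 of the 3 of *Col4a2*. *Tie1* held 1 ETS motif, found in 24.1% of promoters and in 2 of 7 promoters at hand of the 16 endothelial genes. The GATA motif AGATAA was in 0 of those 7 and 11.4% of all promoters, and the RUNX motif TGTGGT in 1 of the 7 and 16.9% of all. The *Col4a1* and *Col4a2* pair had 0.836 and 0.644 transcripts per IAHC cell, 0.184 and 0.0709 per YS cell, and 1.32 and 0.796 per EHT cell. *Tie1* had 0.795 per IAHC cell, 0.121 per YS cell and 1.6 per EHT cell. A match is a description of the sequence and does not show binding.

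At E11 the contrast with YS cells was seen in other cells, 201 IAHC and 46 YS cells. Of 12 named genes higher than in YS cells at E10, 11 met the minimum and 11 were called the same way. Of the 12 lower, 6 met it and 5 were called the same way, all but *Taok3*, with 0 called the opposite way.

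Pathway lists place the IAHC cells between EHT and YS cells in most sums. The fetal programme list of 19 growth and imprinted genes summed to 37 transcripts per IAHC cell (35.6 to 38.4), 47.2 per EHT cell and 8.25 per YS cell. Against EHT cells 2 of 14 were called lower (4.58% over all genes), the imprinted *Mest* and *Plagl1*. Against YS cells 5 of 11 were called higher (4.89% over all genes), *Cdkn1c*, *H19*, *Igf2*, the chromatin protein *Hmga2* (4 and 1.72 per cell) and the factor *Sox4* (0.438 and 0.113). Of these *Cdkn1c* and *Sox4* were under 0.2 per YS cell and met the minimum only through IAHC cells. The Notch list of 24 genes summed to 3.25, 4.19 and 1.76, with its most abundant gene, the glycosyltransferase *Mfng*, at 0.918 per IAHC cell, 0.476 per EHT cell and 0.376 per YS cell. *Mfng* was the only call among 3 Notch genes tested against YS cells (4.89% over all genes), and 0 of 4 were called against EHT cells (2.25% and 4.58%). Integrin and adhesion genes summed to 8.82, 10.1 and 6.09, with *Itga2b* called higher than in EHT cells among 13 (2.25% over all genes), and against YS cells among 10 *Esam* and *Pecam1* higher (4.89%) and *Itga2b* lower (3.45%). *Pecam1* took part in the sort. *Esam* was under 0.2 per YS cell and met the minimum only through IAHC cells, so nothing is drawn from these higher calls. Median log2 ratios over EHT and YS cells were -0.33 and 0.60 for the fetal programme, -0.29 and 0.49 for Notch and -0.27 and 0.42 for adhesion, beside 0.05 and -0.05 over all genes.

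**Figure D3:**
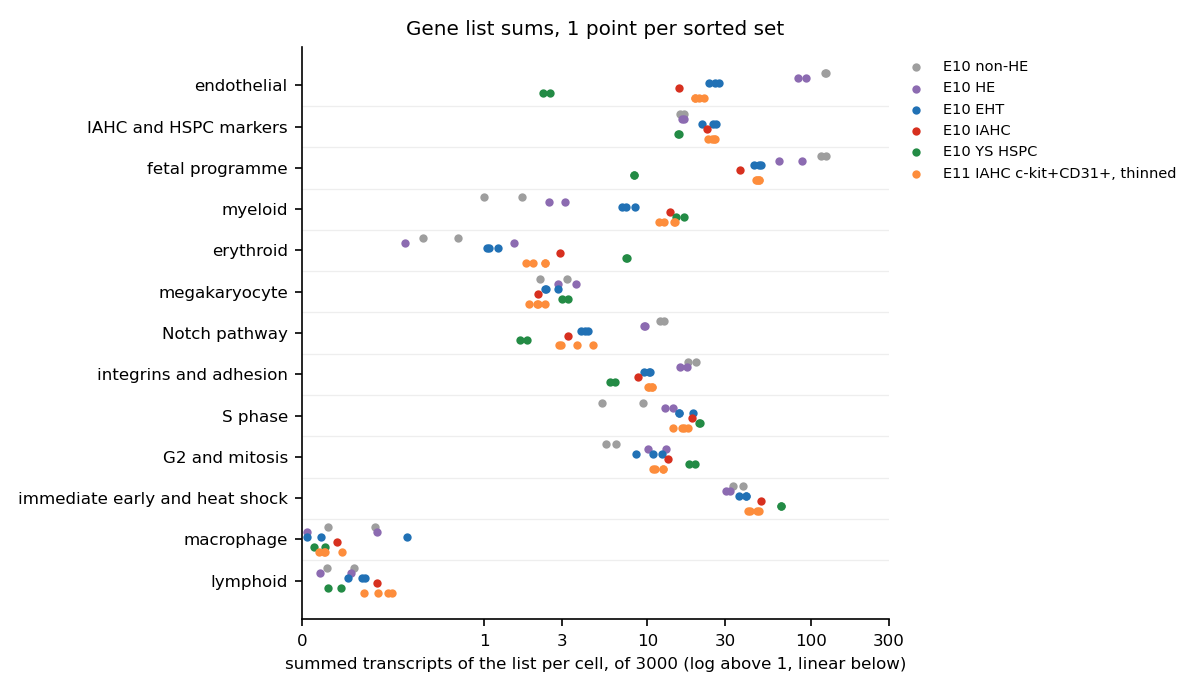
Summed transcripts per cell of 13 gene lists, 1 point per sorted set, in the 5 E10 populations and in E11 IAHC cells thinned to 3000 transcripts, on an axis that is linear under 1 and logarithmic above. The IAHC set lies between the EHT and YS sets for the endothelial, myeloid, fetal programme, Notch and integrin lists.

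Cytokine receptor genes summed to 4.75 per IAHC cell, 4.55 per EHT cell and 2.96 per YS cell. The tumour necrosis factor receptor *Tnfrsf1a* had 0.877 per IAHC cell and 0.298 in each comparator, and was called higher in both comparisons, in the first as the only call among 7 (2.25% over all genes) and in the second with *Kit* among 6 (4.89%). DNA replication genes of S phase summed to 18.7, 17.2 and 20.9, with 0 of 21 called against EHT cells and 1 of 20, *Rrm2*, lower than in YS cells (3.45% over all genes). Genes of G2 and mitosis summed to 13.4 (12.6 to 14.3), 10.3 and 18.8, with *Kif11* called higher than in EHT cells among 18 (2.25% over all genes) and *Cenpf* and *Plk1* lower than in YS cells among 18 (3.45%). IAHC cells thus had more mitotic transcripts than EHT cells and fewer than YS cells, and phases of single cells were not called. Megakaryocyte genes summed to 2.15, 2.53 and 3.13, with *Itga2b* higher (2.25%) and the thrombin receptor *F2r* lower (4.58%) than in EHT cells among 5, and *Itga2b* and *Plek* lower than in YS cells among 4 (3.45%). Median log2 ratios over EHT and YS cells were 0.13 and 0.45 for cytokine receptors, 0.12 and -0.09 for S phase, 0.32 and -0.51 for G2 and mitosis and 0.21 and -0.23 for megakaryocyte genes.

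Markers of other cell types were low in the IAHC cells. Some of them, such as *Csf1r* and *Pdgfrb*, are among the genes by which the study left out non-IAHC cells. Sums of the macrophage and mesenchyme lists therefore describe that selection in part. The macrophage list summed to 0.192 transcripts per IAHC cell, with *Csf1r* the most abundant at 0.123, and 14 of its 18 genes, among them *Cd68*, *Cx3cr1* and *C1qa*, were not seen. EHT cells had 0.246, with sets at 0.578, 0.025 and 0.103 and 19 of the transcripts in 1 cell, and YS cells had 0.0922. Lymphoid genes summed to 0.411, with *Ltb* at 0.137 and *Rag1*, *Il7r* and *Cd3e* at 0, against 0.319 and 0.177. The germ cell and melanoblast list gave 1 transcript, of *Ddx4*, in the 73 cells, against 0.0314 and 0.0355 per cell. The list of mesenchyme and sub-aortic genes summed to 2.4, 3.24 and 0.319, of which *Cdkn1c* gave 1.42 in IAHC cells, while the stromal genes *Pdgfra*, *Pdgfrb*, *Col1a1* and *Dcn* were at 0. The smooth muscle actin *Acta2* of that list had 0.479 per IAHC cell, 0.639 per EHT cell and 0.0496 per YS cell. It and *Cdkn1c* were the 2 list genes tested against YS cells, both called higher (4.89% over all genes). Both met the minimum only through their level in IAHC cells, so this count was set by the minimum. The list sums have no minimum. No gene of the macrophage, lymphoid and germ cell lists met the minimum in these comparisons.

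Erythroid genes summed to 2.9 transcripts per IAHC cell (2.53 to 3.32), 1.14 per EHT cell and 7.44 per YS cell. The embryonic beta-like globin *Hbb-y* gave 67 of the transcripts, in 24 cells with up to 9 each, and *Hbb-bh1* gave 30, in 19 cells, with 11 cells holding both. Per cell *Hbb-y* had 0.918 (0.711 to 1.17), with EHT sets at 0.0312, 0 and 0.0115 and YS sets at 0.292 and 0.276. *Hbb-bh1* had 0.411, against 0.0105 in EHT and 0.745 in YS cells. The ratios over EHT cells were 58.4 (19.2 to 290) and 39.2 (9.96 to 339), on 3 and 2 transcripts in EHT cells. Among IAHC cells with more than 1 *Gpr56* transcript, *Hbb-bh1* missed the minimum against EHT cells, with a log2 ratio of 2.10, and against E11 cells, with 1.92. Without *Hbb-y* the list summed to 1.99 per IAHC cell. *Klf1* and *Alas2* were at 0, and *Gata1* was in 2 cells, 1 of them with *Hbb-y*. Of other globins, *Hba-x* had 0.151 per IAHC cell, 0 in EHT and 0.135 in YS cells. *Hbb-b1* had 0.0822, 0 and 0.00709, while *Hba-a1* and *Hbb-b2* were not seen in IAHC cells. Against YS cells 5 of 10 erythroid genes were called lower (3.45% over all genes), *Cpox*, *Gata1*, *Mt1*, *Mt2* and *Smim1*, and *Hbb-y* was called higher, with a median log2 ratio of -1.27. These 5 were near 0 in IAHC cells and met the minimum only through YS cells, so their count was set by the minimum. The sums of 2.9 and 7.44 over the list have no minimum. Whether the globin transcripts came from the cells or from lysed red cells was not tested.

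Heat shock genes gave a few cells with many transcripts. *Hspa1a*, an inducible chaperone, had 42 transcripts in 9 IAHC cells, with 19 in the highest cell, and *Hspa1b*, its neighbour on chromosome 17, had 59 in 13 cells, with both in 7 cells. Per cell they had 0.575 and 0.808 in IAHC, 0.0524 and 0.147 in EHT and 0.0142 of each in YS cells. Of the EHT sets the one of 64 cells had 0.156 and 0.391, and the others 0 to 0.05. The list of immediate early and heat shock genes summed to 49.6, 38.8 and 65.9, most of it from *Hsp90ab1* at 16.2 and *Hspa8* at 16.1 per IAHC cell. Of 16 tested against EHT cells 2 were higher (2.25% over all genes), *Hspa1a* and *Hspa1b*, and 2 lower (4.58%), *Jund* and *Klf6*. Of 11 tested against YS cells 3 were higher (4.89%), with *Jun* at 1.34 and 0.142, and *Hsph1* was lower (3.45%). These 3 were under 0.2 per YS cell and met the minimum only through IAHC cells, as did *Hspa1a* and *Hspa1b* against EHT cells. The median log2 ratios were 0.28 and -0.12. The stress of dissociation and sorting was not tested.

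Among the IAHC cells themselves the endothelial list sum ranged from 1 to 50 transcripts, with a median of 14 and quartiles of 8 and 19. The 39 cells with up to 14 and the 34 with more are compared here as a description, and 10 cells lay within 1 transcript of the median. The myeloid sum was 15.7 per cell (14.5 to 17) in the lower and 11.4 (10.3 to 12.6) in the upper range, a ratio of 0.727 (0.639 to 0.827). Its medians lay closer, at 13 (6 to 34 over cells) and 11 (2 to 20). *Mpo* gave 38 transcripts in 23 of 39 cells and 5 in 5 of 34 cells, a ratio of 0.151 (0.0464 to 0.384). *Rac2* gave 41 and 10 transcripts and *Tyrobp* 28 and 7. Not every blood gene followed, since the leukocyte membrane gene *Laptm5* had 1.64 per cell in the lower and 2.15 in the upper range, and *Sfpi1* had 0.667 and 1.03. Cells with fewer endothelial transcripts thus had a higher mean myeloid sum, though not in each gene, and the ranges of single cells overlapped.

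The fetal programme sum rose with the endothelial sum, from 26.5 (24.9 to 28.1) to 49.1 per cell (46.7 to 51.5), a ratio of 1.85 (1.71 to 2.01). *H19* went from 10.2 to 20.9 and *Igf2* from 7.08 to 16.8 per cell, and *Cdkn1c* from 27 to 77 transcripts. The ratios were 2.04, 2.38 and 3.27. *Cdkn1c* is also 1 of the study's non-IAHC genes, which together went from 0.949 to 2.65 per cell, and the mesenchyme and sub-aortic list went from 1.54 to 3.38. *Procr* had 8 transcripts in the lower and 26 in the upper range, *Mecom* 3 and 14, and *Gfi1b*, the later partner of *Gfi1*, 8 and 1. Markers of the clusters were spread over both ranges, since the stem and progenitor list had 22.9 and 23.4 per cell, *Gpr56* 3.95 and 4.44, *Kit* 1.08 and 0.794 and *Runx1* 20 and 25 transcripts. S phase genes differed little, at 19 and 18.4 per cell, and mitotic genes had 15.1 and 11.5. *Cdh5* and *Runx1* were together in 21 IAHC cells (28.8%), *Cdh5* and *Coro1a* in 37 (50.7%) and *Cdh5* and *Mpo* in 12 (16.4%), beside products of the separate shares of 26.2%, 52.4% and 23.6%. The deposited totals are equal by down-sampling, and differences in original depth or in plate between the ranges were not tested.

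**Figure D4:**
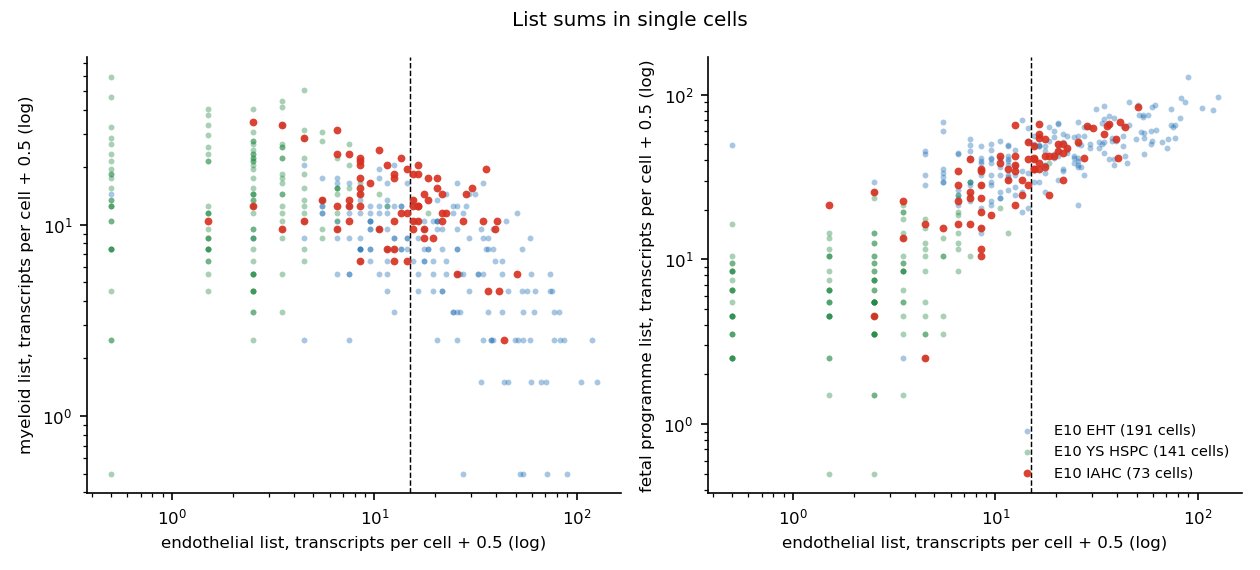
Endothelial list sum per cell against the myeloid and the fetal programme list sum, each plus 0.5 on log axes, for 73 IAHC, 191 EHT and 141 YS cells. The dashed line separates IAHC cells with endothelial sums up to 14 from those above, in which fetal programme sums averaged 26.5 and 49.1.

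IAHC cells a day older, of the same strain and sort, gave the fewest calls of the 3 comparators. Of 3434 genes that met the minimum 30 were higher at E10 (0.874%) and 29 lower (0.844%), with a median log2 ratio of -0.02, and 15 and 6 held against each of the 4 E11 sets. E11 sets differed from each other in 1.76% to 2.94% of genes, and E10 IAHC cells differed from single E11 sets in 2.84% to 4.16%. Single E11 sets thus differed more from the E10 cells than from any other E11 set, and the E10 cells are 1 set, so set and stage cannot be told apart. The E11 cells were used over the genes that the E10 table also holds and thinned to 3000 transcripts. Of the endothelial list 0 of 23, and of the myeloid list 0 of 16, were called, and the sums were 15.5 and 13.7 per cell at E10 and 20.3 and 13.3 at E11. Of stem and progenitor genes 1 of 29 was called, *Mycn*, lower at E10 with 0.151 against 0.2 to 0.755 in E11 sets, and the fetal programme sum was 37 at E10 and 47.3 at E11 with 0 of 12 called.

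Genes higher at E10 were led by the ascorbate transporter *Slc23a1*. It had 206 transcripts in 65 of 73 E10 cells, 2.82 per cell (2.45 to 3.23), and 8 transcripts in 8 of 201 E11 cells, 70.9-fold (35.3 to 166). At E10 YS cells had 1.1 and EHT cells 0.675 of it, with EHT sets from 0.069 to 1.5, and at E11 they had 0.13 and 0.109. *Hbb-y* and *Hbb-bh1* were 15.4-fold (8.25 to 31.2) and 16.5-fold (6.35 to 54.5) higher at E10, the calls among 4 erythroid genes (0.874% over all genes). *Kif11* had 1.03 per cell and 0.116 to 0.204 in E11 sets, and *Cxcr2*, a chemokine receptor, had 1.53 and 0.163 to 0.441. *Churc1* (1.33 and 0.254), the splicing gene *Snrpf* (1.96 and 0.443), *Mfsd11* (1.27 and 0.299), the non-coding *A330032B11Rik* (0.74 and 0.149), the leptin receptor *Lepr* (0.589 and 0.129), *Xaf1* (0.411 and 0.0746) and the RNA polymerase I factor *Ttf1* (0.521 and 0.124) were the others. Most of these also fell from E10 to E11 in YS cells, as did *Kif11* from 1.26 to 0.217, *Cxcr2* from 3.81 to 1.07, *Mfsd11* from 2.38 to 0.891 and *Lepr* from 1.41 to 0.413. In EHT cells *Cxcr2* fell from 3.21 to 1.46 and *Lepr* from 0.995 to 0.37, while *Kif11* (0.23 and 0.261), *Churc1* (1.2 and 1.04), *Snrpf* (2.89 and 1.89), *Mfsd11* (1.03 and 0.543), *A330032B11Rik* (0.393 and 0.283), *Xaf1* (0.403 and 0.304) and *Ttf1* (0.764 and 0.696) did not change 2-fold. *Hbb-y* rose in YS cells, from 0.284 to 2. The fall was thus shared mainly with YS cells, and stage and table cannot be told apart.

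Genes lower at E10 included immediate early genes, which respond to stimulation within minutes. Of 20 genes of that list and heat shock 6 were called lower (0.844% over all genes) and 1 higher (0.874%), *Hspa1b*. Of the 6, *Klf2*, *Klf6*, *Egr1*, *Fos* and *Fosb* were under 0.2 per E10 cell. They met the minimum only through E11 cells, so nothing is drawn from this count. The flow-responsive factor *Klf2* had 0.164 per cell at E10 (0.0849 to 0.287) and 0.714 to 1.07 in E11 sets, 5.45-fold lower (3.04 to 10.7). *Klf6* had 0.0822 and 0.306 to 0.763, *Egr1* 0.123 and 0.51 to 0.881, *Fos* 0.11 and 0.433, *Fosb* 0.0959 and 0.438, and *Jund* 0.26 and 1.04. *Jun* of the same family had 1.34 and 1.76, under 2-fold, so the family did not move as a whole. EHT cells shifted the same way between the tables, from 0.288 to 0.826 for *Klf2*, 0.325 to 0.804 for *Klf6* and 0.12 to 0.348 for *Egr1*, so this was not limited to IAHC cells. The protease inhibitor *Serpina3g* (0.0685 and 0.368), *2410002F23Rik* (0.151 and 0.522) and the heterochromatin protein *Cbx5* (0.466 and 1.15) completed the named genes. *Lgals1*, at 0.26 and 0.836, was lower in E10 IAHC cells than in each of the 3 comparators. No gene of the S phase, Notch, cytokine receptor, integrin, megakaryocyte and mesenchyme lists was called between stages, and *Kif11* was the call among 18 mitotic genes (0.874% higher over all genes).

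Whole clusters, picked from the aorta at E10 and sequenced as 1 library each, give an independent view of the same structures. Of 54 libraries, 28 had at least 5000 transcripts, 21 from the ventral and 7 from the dorsal side, with totals of 5982 to 115328 and a median of 14521. In these, fewer cells of a type and less RNA per cell cannot be told apart. Their endothelial sum per 3000 transcripts had a median of 8.56 (1.16 to 21.9 over libraries), beside a mean of 15.5 in the single cells, and the myeloid sum 8.02 beside 13.7. The fetal programme sum was 28.3 beside 37 and the stem and progenitor sum 20.8 beside 23.2. *Gpr56* was seen in 28 of 28 libraries, with a median of 2.3. *Cited4* was in 0 and *Mt1* in 5 of them, and *Fn1* was in 28, with a median of 2.5. The macrophage sum reached 5.13 in a library, with a median of 0.132.

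Several genes named above had other levels in whole clusters than in the IAHC cells. *Mycn* had a median of 0.843 in libraries and 0.151 in the cells, *Nip7* 3.41 and 0.685, and *Ogdh* 1.4 and 0.548, towards the levels of EHT cells. *Slc23a1*, in 65 of the 73 cells, was in 13 of 28 libraries, with a median of 0 and at most 0.559 per 3000 transcripts. *Ikzf2* (0.972 and 0.219), *Atxn2l* (0.52 and 0.0274), *Ost4* (0.487 and 0.0959), *Scand1* (0.0607 and 0.726) and *Pstpip1* (0.0206 and 0.37) also lay nearer to EHT cells. *Pfn1* had 1.31 and 1.77, and *Gm12191* was in 28 libraries with a median of 1.46, so these C57BL/6 samples were alike for both. *Klf2* had 0.0339 and 0.164, both under the E11 sets, but *Jund* had 1.02 and 0.26 and *Klf6* 0.306 and 0.0822, so the low level of these 2 in the cells was not shared. Medians of *Egr1* (0.0352), *Fos* (0) and *Fosb* (0) were low in the libraries too. Single libraries reached 1.28, 3.22 and 1.4, with transcripts in 14, 11 and 11 of 28. *Hbb-y* was in 23 libraries, with a median of 0.387. The myeloid sum of libraries, with a median of 8.02, also lay nearer to 7.67 in EHT cells than to 13.7 in IAHC cells. The endothelial sum, at 8.56, was below both, 26 and 15.5. Several contrasts of the sorted cells, among them low *Mycn* and *Nip7* and high *Slc23a1* and *Scand1*, were thus not shared by the whole clusters. The study describes whole clusters as made of IAHC and EHT cells, with a large part from EHT cells at E10, so the 2 kinds of sample differ in cell content. The part of this and of the 1 sorted set in the contrasts was not tested.

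**Figure D5:**
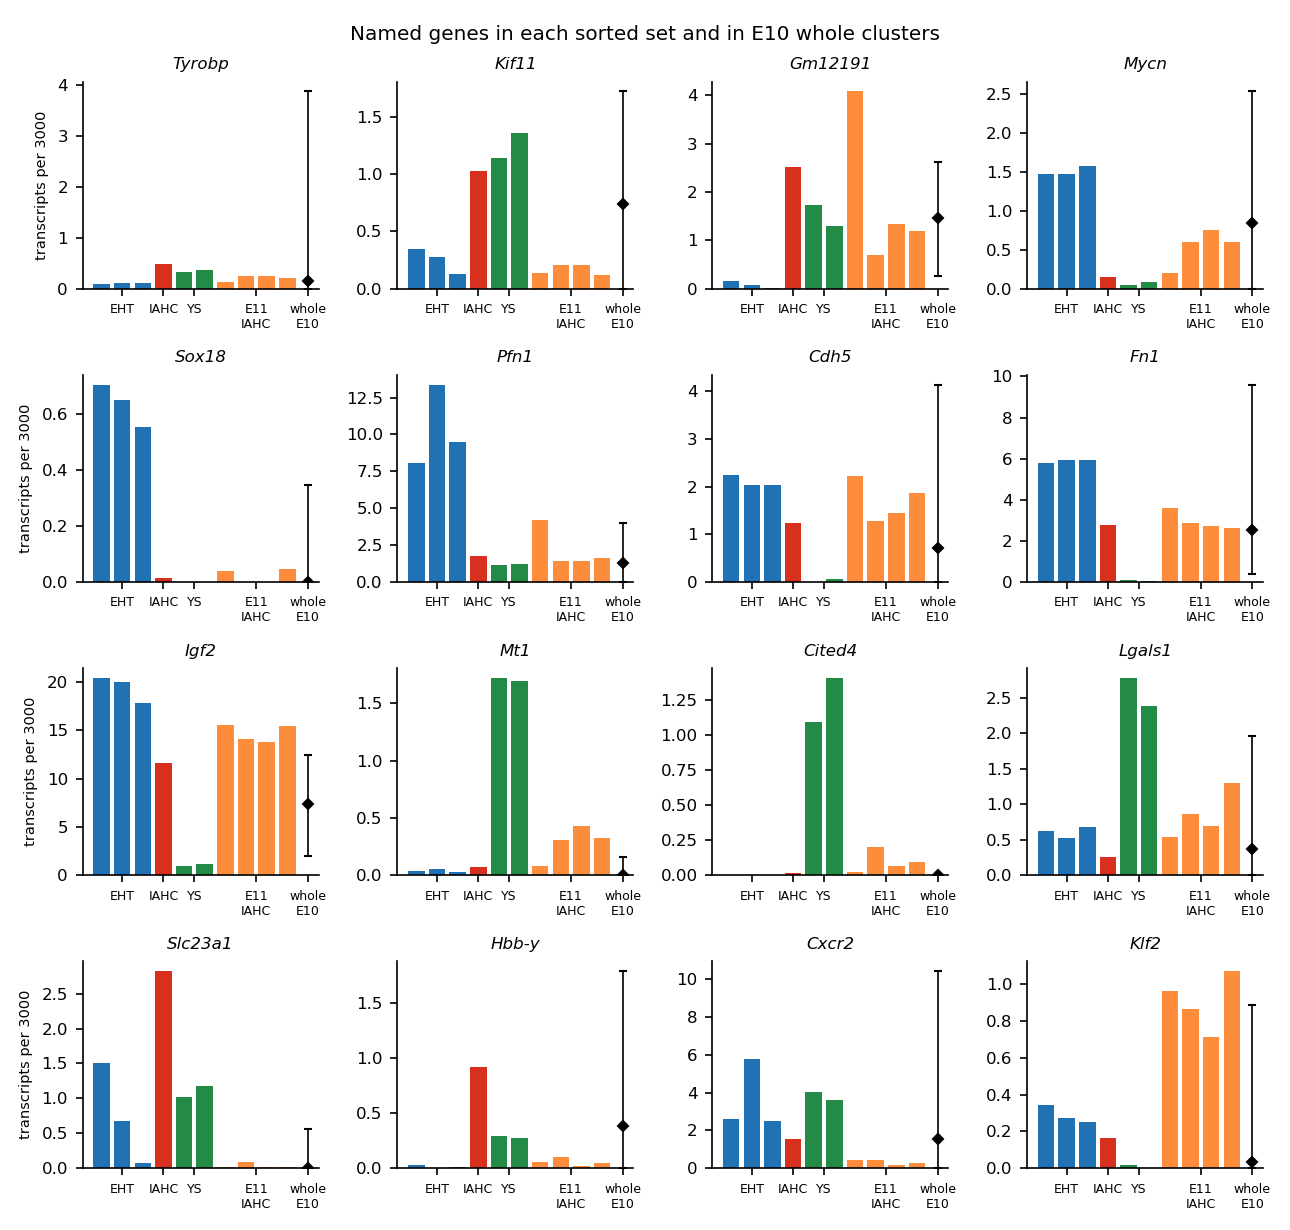
Mean transcripts per cell of 16 genes in each sorted set of EHT, IAHC, YS and E11 IAHC cells (bars from 0), with the median and the lowest to highest value of 28 E10 whole clusters per 3000 transcripts (diamonds with lines). *Mycn* and *Slc23a1* in whole clusters lie away from the bar of the E10 IAHC cells.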

How the data were processed

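CEL-Seq was measured in single cells and whole clusters. As deposited, the tables by the authors hold estimated counts, down-sampled to 3000 per E10 and 5000 per E11 cell with 0.1 added to each value, and not scaled for whole clusters. RaceID2 is named in the study's methods, BWA 0.6.2-r126 and mm10 in the submitters' processing notes, and the annotation is not given in the sources used here. Entries carry a gene symbol and chromosome, and 428 of 429 genes of the lists and named genes were placed on GRCm38.p6.

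With 0.1 taken off, means per cell were compared as log2 ratios with 0.1 transcripts per cell added, and genes with an average of the 2 means of at least 0.2 were tested against a 2-fold change. No test was run, since each population is 1 sample. Genes named in the report are, for each comparison and direction, up to 12 with the largest ratio among called genes that also passed against every sorted set of the comparator, and members of 17 gene lists and the 5 markers. The lists hold 432 entries, 425 of them in the table, and the report names only some of their members. Members and lists were chosen with earlier results of these data known. Sequences were at hand for 41 of 63 named genes and 7 of 16 endothelial genes.

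The E11 table holds 102 entries with symbols starting Rpl or Rps that the E10 table lacks, with 22.5% of the transcripts of E11 IAHC cells. E11 cells were therefore restricted to the 19322 shared genes (lowest total 3415) and thinned to 3000 with seed 1, a choice made after seeing the files. Of the other columns, 282 E11 single cells and 55 whole clusters were not used. No doublet caller was run, since cells were sorted into wells and depths equalised. In ratios, a floor of 3 counts was used for counts of 0. Alternatives were a pseudocount of 0.5, a minimum of 0.5 or none, median-of-ratios scaling, sets weighted equally or left out, haemoglobin genes left out, stricter choices of IAHC cells, another seed and the deposited depth. Python 3.11.15, numpy 2.4.6, pandas 2.3.3, scipy 1.17.1 and matplotlib 3.10.9 were used, and the steps were tested on simulated data.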

Additional observations from a re-analysis of the deposited data

Results flagged for a closer look

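The embryonic globin gene *Hbb-y* differed in direction between stages under the same contrast. At E10 IAHC cells had 0.918 and YS cells 0.284 transcripts per cell, a log2 ratio of 1.41 that held for both YS sets. At E11 IAHC cells had 0.0597 and YS cells 2, a log2 ratio of -3.72 for the pooled IAHC sets against the single YS set. The difference between the stages was not tested.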

How the results depend on the processing

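With a pseudocount of 0.5, genes higher and lower numbered 11 and 29 against EHT, 36 and 17 against YS and 7 and 2 against E11 cells, since small means change less. With a minimum of 0.5 they were 36 and 52, 49 and 56, and 14 and 9, and with no minimum lower genes were 307, 169 and 61 and those higher than in YS cells 326, since fewer or more genes were tested. With no more than 2 transcripts of each non-IAHC gene, 47 genes were lower than at E11, and the cause was not tested. Alternatives chosen after seeing the data were the absent E11 entries kept, which gave 73 and 11 and a median shift of 0.30 log2, and cells with more than 1 *Gpr56* transcript. The 24 cells with the highest against the 24 with the lowest endothelial sums gave ratios of 0.621 for the myeloid list, 2.45 for the fetal programme, 0.0833 for *Tyrobp*, 3.27 for *H19* and 3.18 for *Igf2*, the same directions further from 1. Other counts, 53 of 72, were within 1.5 times. Of list counts 307 stayed within that and 101 did not, 30 of them with the pseudocount and 21 with the minimum of 0.5. Of log2 ratios of named genes 697 kept within counting limits, 73 moved and 0 reversed, and 61 were no longer called. Genes with few transcripts are limited by depth, and at 3000 transcripts 1 set of 73 cells gives no spread between sets.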
